A study of Mus musculus with 10 samples.

Results

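The 78 mouse genes named Mrpl or Mrps followed by a number encode, with 1 exception given below, protein subunits of the mitochondrial ribosome. They were chosen by gene name among reads on annotated mRNAs whose poly(A) tail estimate had the quality tag PASS, without pseudogenes. The names gave 79 genes before 1 pseudogene was dropped, 49 of the 78 with a large-subunit and 29 with a small-subunit name. They held 20794 of 2042110 kept read alignments, 1.02%, among 13272 genes. The cells were P19, a mouse embryonal carcinoma line of wild-type genotype, kept undifferentiated. They were transfected with 1 siRNA against Larp1 (siLarp1) or a pool of scrambled siRNAs (siCtl) and collected at 24 h, or at 48 h after a second transfection made 24 h after the first. Poly(A) RNA was sequenced as native molecules on nanopore flow cells, with 3 siCtl and 3 siLarp1 libraries at 24 h (named 19, 21 and 22) and 2 of each at 48 h (named 24 and 25), and the question was whether lowering Larp1 changes the tails or the amount of these mRNAs. The labels do not say whether the replicates were separate cultures, and the study's methods call them biological replicates, so p-values measure the spread between these samples.

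The mitochondrial ribosome translates the few proteins encoded in mitochondrial DNA, all of them subunits of the respiratory chain and ATP synthase. Its rRNAs are made in the organelle, whereas its proteins are encoded in the nucleus, translated in the cytosol and imported. Some of these proteins have counterparts in bacterial ribosomes and others are found only in mitochondria. LARP1 is an RNA-binding protein known for binding the capped 5′ end of TOP mRNAs, which start with a C followed by a run of pyrimidines and encode mainly cytosolic ribosomal proteins. A poly(A) tail binds PABP and shortens as an mRNA ages, and tails are grouped here as under 30 nt (the <30-nt class), 30 to 90 nt, and over 90 nt.

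Because LARP1 recognises the 5′ end, the first 20 bases of the annotated transcript with the most reads are shown for the members whose values are described in most detail, for the members whose annotated start is a C followed by at least 4 pyrimidines, and for a classic TOP mRNA. Capitals mark the uninterrupted pyrimidines from the first base, sequences are from GENCODE vM21 on GRCm38, the sense strand alone was searched, and all of them lie in first exons.
Rpl32: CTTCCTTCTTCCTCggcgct
Mrpl10: CTTCCgtctccgcgcagcgc
Mrpl4: CTTCCCggcacccggctctg
Mrpl35: CTTTTgctttgtaactttga
Mrpl36: CTTCCTggcggtggcgtccc
Mrps18b: aggccgtacgtccggtgtgc
Mrps18c: gataaaggtgcagtgcattg
Mrpl12: ggcccggacagctcgcctcc
Of the 78 members, 4 (5.13%) started this way, beside 104 of 3919 genes with at least 60 reads (2.65%). Only 9 of 80 cytosolic ribosomal protein genes (11.2%) did so, a set known to carry the motif, so these letters describe the annotated start, and the starts used in these cells were not analysed here.

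The 10 libraries held from 112720 to 423398 kept alignments and from 1042 to 4670 alignments on members. Abundance is given as reads per 1000000 kept reads of a library (RPM). Larp1 RNA, the target of the siRNA, lay at 75.9 to 85.0 RPM in siCtl and 19.1 to 44.9 RPM in siLarp1 at 24 h, and at 123 to 169 against 18.5 to 24.9 RPM at 48 h. The siLarp1 libraries held 3 to 6 Larp1 reads each. The 6 markers of pluripotent embryonal carcinoma cells, Pou5f1 and Sox2 among them, were all detected and summed to 3210 to 4103 RPM. Neuronal markers summed to 190 to 363 RPM, almost all from Stmn2 and Tubb3, with Neurod1 at 0 reads, and endoderm and mesoderm markers summed to 23.2 to 82.7 RPM at 24 h and 151 to 415 RPM at 48 h, almost all from T, with Sox17, Afp and Mesp1 at 0 reads. At 24 h the siCtl and siLarp1 replicates were multiplexed in separate pools, so pool and treatment cannot be told apart, whereas the 4 libraries at 48 h shared a pool.

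Tails of 30 to 90 nt made up a smaller share of the mitochondrial ribosomal protein mRNAs in siLarp1 than in siCtl at both time points, and the median tail was longer. At 24 h the 3 siCtl libraries had 43.0%, 40.6% and 43.5% of member reads in this class and the 3 siLarp1 libraries 39.8%, 38.0% and 38.2%. The means were 42.3% ± 1.6 and 38.7% ± 1.0 (SD, n = 3), a difference of -3.68 percentage points, and every siLarp1 library lay below every siCtl library. At 48 h the siCtl libraries had 46.6% and 45.1% and the siLarp1 libraries 40.2% and 35.1%, with means of 45.9% ± 1.1 and 37.7% ± 3.6 (SD, n = 2) that differed by -8.21 points, again without overlap. These are pooled reads of a chosen gene list, so no p-value is given for them. With alignments of mapping quality 10 and over alone, the groups overlapped at 24 h (-3.39 points). In bulk RNA, fewer molecules of 1 tail class and more of another cannot be told apart from a share.

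**Figure D1:**
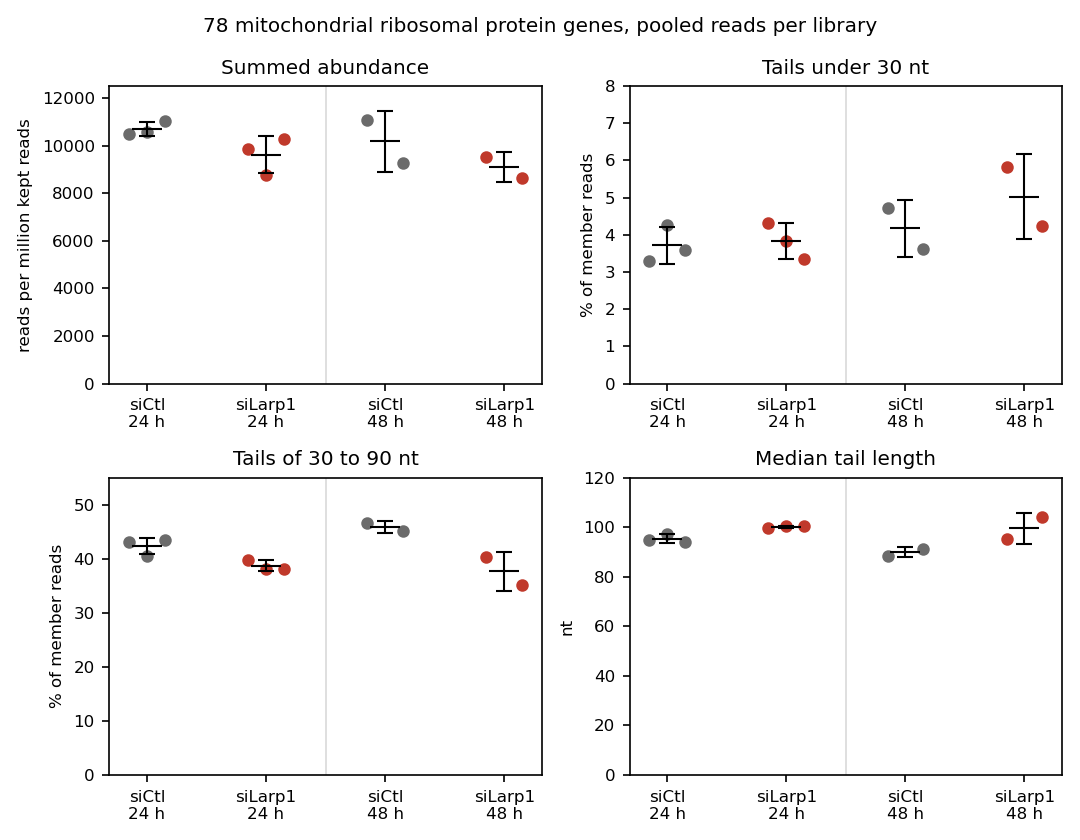
Pooled reads of the 78 mitochondrial ribosomal protein genes in each library: summed abundance in RPM, percent of member reads with tails under 30 nt, percent with tails of 30 to 90 nt, and median tail length in nt. Points are libraries (grey siCtl, red siLarp1), black bars are group means ± SD (n = 3 at 24 h, n = 2 at 48 h). The share of 30 to 90 nt is lower and the median is longer in siLarp1 without overlap at either time, while the <30-nt shares overlap.

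The share of member reads with tails over 90 nt was higher in siLarp1. It was 53.7%, 55.2% and 52.9% in siCtl and 55.8%, 58.2% and 58.5% in siLarp1 at 24 h, and 48.6% and 51.2% against 54.0% and 60.7% at 48 h. The median tail was 94.8, 97.3 and 94.0 nt in siCtl and 99.5, 100.3 and 100.3 nt in siLarp1 at 24 h, which put all siLarp1 libraries above all siCtl libraries by a mean of 4.69 nt. At 48 h the medians were 88.5 and 91.3 nt against 95.1 and 103.9 nt, a mean difference of 9.64 nt. That difference was 5.22 nt without siLarp1 library 25, the library with the fewest member reads, and 14.1 nt without siLarp1 library 24.

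**Figure D2:**
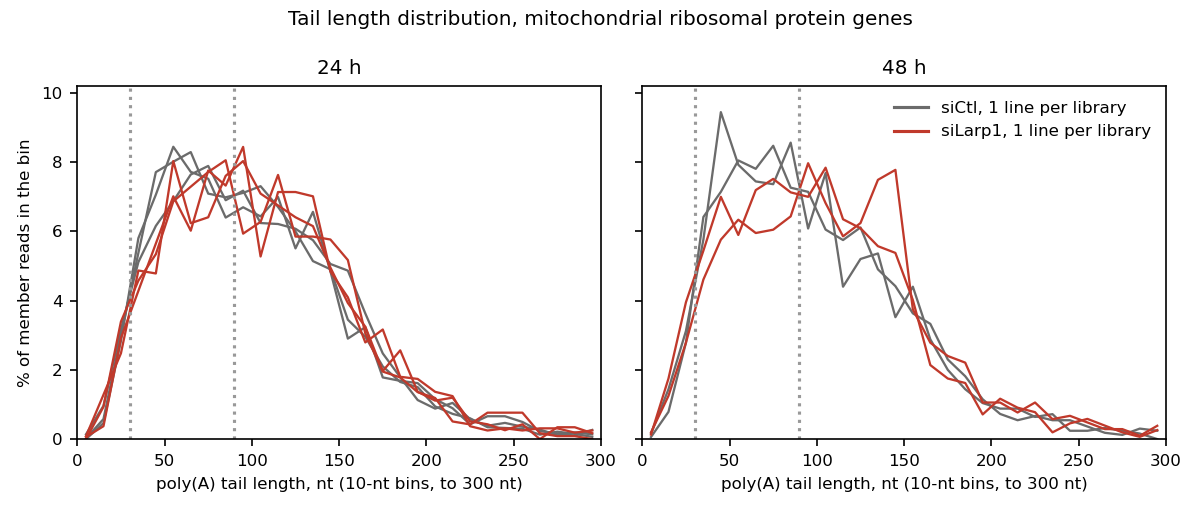
Distribution of poly(A) tail length on reads of the 78 genes, as the percent of member reads in bins of 10 nt up to 300 nt, with 1 line per library (grey siCtl, red siLarp1) at 24 h and 48 h. Dotted lines mark 30 nt and 90 nt. Between these lines the siCtl lines run mostly above the siLarp1 lines, most clearly at 48 h.

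The 48 h pool was sequenced in 2 runs that each held all 4 libraries, which allows the comparison within a run. In the first run 46.3% and 45.9% of member reads in siCtl and 38.6% and 35.5% in siLarp1 had tails of 30 to 90 nt. In the second run, with 268 to 414 member reads per library, the shares were 47.5% and 42.8% against 45.1% and 34.0%, so the groups overlapped there. The mean difference was -9.09 points in the first run and -5.61 points in the second.

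The share of tails under 30 nt overlapped between the treatments at both times. The <30-nt class held 3.30%, 4.26% and 3.60% of member reads in siCtl and 4.32%, 3.84% and 3.35% in siLarp1 at 24 h (means 3.72% ± 0.49 and 3.84% ± 0.49, SD, n = 3). At 48 h it held 4.72% and 3.63% in siCtl and 5.83% and 4.22% in siLarp1 (means 4.17% ± 0.77 and 5.03% ± 1.14, SD, n = 2). Each share rests on 44 to 168 reads. The 48 h difference of 0.851 percentage points depended on single libraries: the groups were apart without siCtl library 24 (1.40 points) and without siLarp1 library 25 (1.65 points), and overlapped without siLarp1 library 24 (0.0478 points) and without siCtl library 25 (0.306 points). They were also apart at 48 h with reads of all quality tags (1.37 points). With the boundary at 35 nt the differences were -0.198 points at 24 h and -0.025 points at 48 h. With it at 25 nt they were 0.324 and 0.591 points, and the groups overlapped in each case. In the 80 cytosolic ribosomal protein genes the <30-nt class held 1.67 to 1.85% in siCtl and 2.94 to 3.17% in siLarp1 at 24 h, and 2.28 to 2.74% against 4.15 to 4.48% at 48 h, with no overlap.

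Taken within each library, the members exceeded the cytosolic ribosomal protein mRNAs in the <30-nt class by a mean of 1.93 percentage points in siCtl and 0.747 points in siLarp1 at 24 h, and by 1.66 and 0.709 points at 48 h. These differences did not overlap between treatments at either time, but the gaps were narrow. The lowest siCtl and highest siLarp1 values were 1.46 and 1.39 points at 24 h and 1.3497 and 1.347 points at 48 h. For tails of 30 to 90 nt, the members stood 0.155 points above the cytosolic set in siCtl and -5.22 points from it in siLarp1 at 24 h, and at -0.916 and -7.35 points at 48 h. These differences hold changes of both sets. The cytosolic set held 39.9 to 43.8% in siCtl and 43.4 to 44.5% in siLarp1 at 24 h. At 48 h it held 46.2 to 47.4% against 43.7 to 46.3%, and its groups overlapped at both times. The median tail of the members was shorter than that of the cytosolic set in each siCtl library (mean differences of -2.04 and -1.04 nt at 24 h and 48 h) and longer in each siLarp1 library (6.13 and 8.58 nt).

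The nuclear-encoded subunits of respiratory complex I, another set of imported mitochondrial proteins, gave 36 genes and 17843 reads for a comparison at a similar depth. Their <30-nt share was 2.09 to 2.90% in siCtl and 2.84 to 3.26% in siLarp1 at 24 h, which overlapped, and 2.03 to 2.32% against 4.19 to 4.33% at 48 h, which did not, and the within-library difference between members and complex I in this class overlapped between treatments at both times. Their share of 30 to 90 nt tails was 37.5 to 41.0% in siCtl and 37.5 to 38.6% in siLarp1 at 24 h, which overlapped, and 43.3 to 44.2% against 39.3 to 40.8% at 48 h, which did not. Within libraries the members exceeded complex I by a mean of 3.17 points in siCtl and 0.643 points in siLarp1 at 24 h, and by 2.15 points in siCtl at 48 h, where they stood at -2.39 points in siLarp1. In the 30 to 90 nt class the treatments did not overlap in this within-library difference. All remaining mRNAs shifted less than the members in this class, as the siCtl and siLarp1 means were 35.7% and 34.8% at 24 h, where the libraries overlapped, and 38.6% and 35.7% at 48 h, where they were apart. The members' lead over these mRNAs was 6.60 points in siCtl and 3.87 in siLarp1 at 24 h, and 7.30 and 1.98 points at 48 h, again without overlap.

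**Figure D3:**
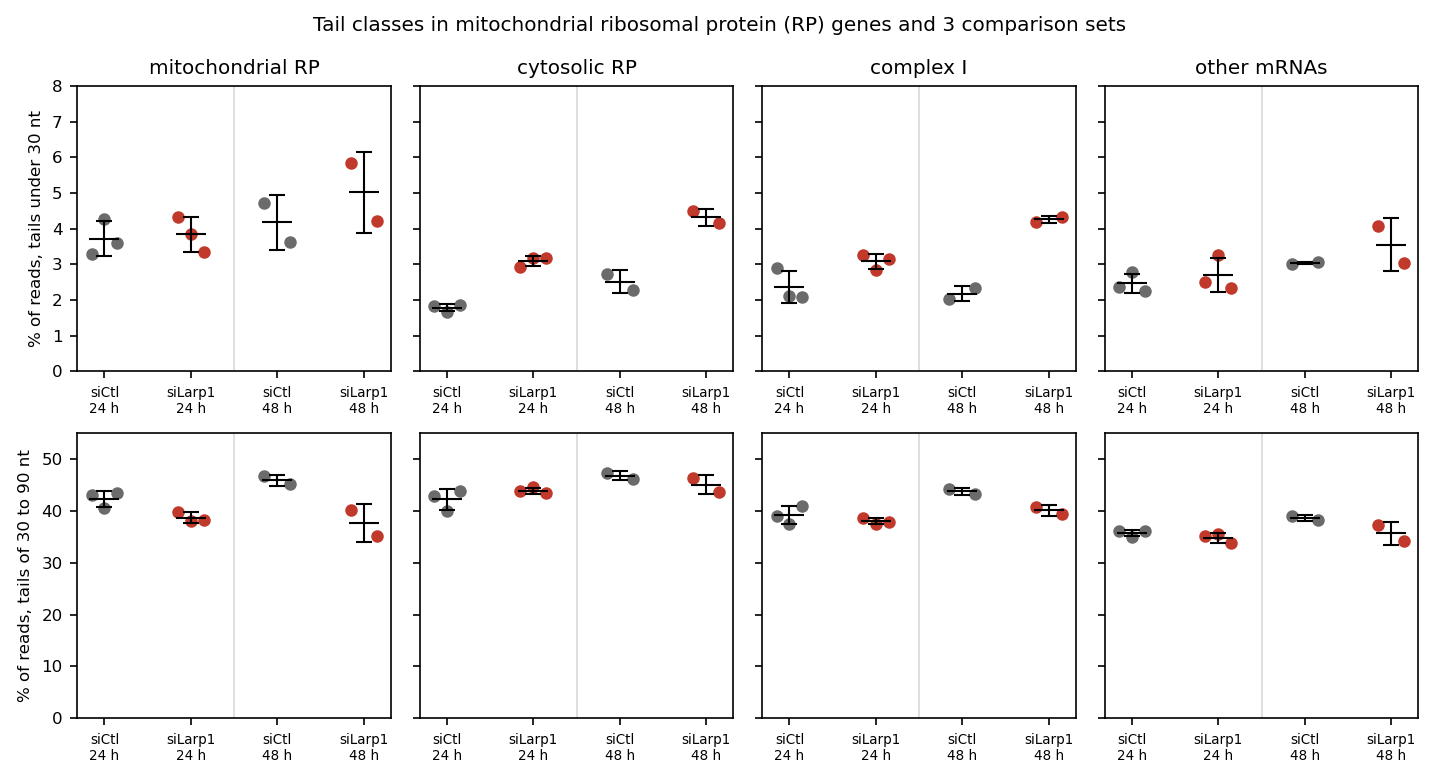
Percent of reads with tails under 30 nt (top) and of 30 to 90 nt (bottom) in each library for the mitochondrial ribosomal protein (RP) genes, the cytosolic RP genes, nuclear-encoded complex I subunits and all other mRNAs. Points are libraries, black bars are means ± SD (n = 3 at 24 h, n = 2 at 48 h). The separation between siCtl and siLarp1 lies in the lower row for the mitochondrial set and in the upper row for the cytosolic set, and complex I is apart in both rows at 48 h only.

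Summed abundance of the members was lower in siLarp1 at 24 h and overlapped between the groups at 48 h. At 24 h it was 10468, 10571 and 11029.8 RPM in siCtl and 9845, 8755 and 10264 RPM in siLarp1, with means of 10689.6 ± 299 and 9621 ± 779 RPM (SD, n = 3) and no overlap. Without siLarp1 library 21 the difference fell from -1069 to -635 RPM. At 48 h the values were 11089 and 9249.9 RPM in siCtl and 9526 and 8643 RPM in siLarp1, which overlapped. The 48 h difference of -1085 RPM was -165 RPM without siCtl library 24, -643 RPM without siLarp1 library 25 and -2005 RPM without siCtl library 25. Complex I subunits stood at 99.7% of siCtl at 24 h and 92.0% at 48 h, and cytosolic ribosomal proteins at 100.9% and 93.0%. These are shares of sequenced poly(A) RNA, so fewer transcripts per cell and a different makeup of the rest cannot be told apart.

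Gene by gene, 68 members had at least 30 reads at each time point and were tested among 2698 genes in 1 fit over the 10 libraries. The 10 not tested for low 48 h counts were Mrps2, Mrps6, Mrps10, Mrps22, Mrps27, Mrpl1, Mrpl19, Mrpl32, Mrpl36 and Mrpl53. No member passed an adjusted p of 0.05 in the moderated quasi-binomial test of the 30 to 90 nt share, where 0.222% of all genes passed at 24 h and 0.0% at 48 h. None passed in the same test of the <30-nt share either (0.0% of all genes at both times). The lowest adjusted p of any gene there was 0.833 at 24 h and 0.656 at 48 h, so that test could not set members apart. An alternative, limma on log2 odds with 0.5 added, shifts with depth. It called 37 of 2698 genes at 24 h and 15 at 48 h, all higher, and 0 members. In the limma voom test of abundance (0.0% and 0.0371% of all genes, the latter being Larp1) and the limma test of the median tail (0.0926% and 0.0%) the members' count was also 0. The lowest adjusted p of a member was 0.355, for Mrps18b in the 30 to 90 nt share at 24 h.

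The fitted differences of the members in the 30 to 90 nt class were mostly negative, though none passed the adjusted threshold. At an unadjusted p under 0.05, 7 of 68 members were lower and 1 higher at 24 h (3.97% and 2.52% of all genes), and 9 were lower and 0 higher at 48 h (5.3% and 1.56%). Fitted differences lay below 0 in 46 of 68 members at 24 h and 48 at 48 h (67.6% and 70.6%), against 55.6% and 61.6% of all genes, and at both times in 33 members (48.5%, against 35.1% of all genes). The median member had a log2 odds difference of -0.19 at 24 h and -0.50 at 48 h, beside -0.07 and -0.18 for all genes.

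The other readouts gave these counts at an unadjusted p under 0.05. In abundance 10 of 68 members were lower and 0 higher at 24 h (2.89% and 3.0% of all genes) and 2 lower and 0 higher at 48 h (2.78% and 2.74%). The 24 h count of 10 depended on a single library, as it was 2 without siLarp1 library 21. It was 5 to 8 without any other 24 h library. Fitted differences at 24 h lay below 0 in 48 of 68 members (70.6%, against 50.9% of all genes), and in 37 of 68 without siLarp1 library 21. The share of all genes in the fit without that library was not tallied. For the median tail, 4 of 65 members with at least 5 reads in each library were longer and 0 shorter at 24 h (3.2% and 2.92% of all genes), and 9 longer and 0 shorter at 48 h (3.89% and 1.71%). The 48 h count depended on the read filter. With reads of all quality tags, 3 of 68 members were longer and 1 shorter at 48 h. With barcode confidence of at least 0.9, 3 of 58 were longer and 0 shorter. Shares of all genes at the unadjusted threshold were not tallied under these 2 filters. In the <30-nt class 0 of 65 members were higher and 1 lower at 24 h (3.5% and 0.407%), and 1 of 62 was higher and 0 lower at 48 h (3.25% and 0.351%). Of the 80 cytosolic ribosomal protein genes, 48 and 33 were higher in that class at 24 h and 48 h at the same unadjusted threshold, and 0 by adjusted p. At both times in the same direction by that threshold there were 0 of 65 members in the median tail (0.463% of all genes) and 0 of 59 in the <30-nt share (1.36%). Tests of the difference between the 48 h and 24 h effects called 0 members by adjusted p in any of the 4 readouts, and 0 of all genes. At an unadjusted p under 0.05, these tests gave 2 of 68 members in the 30 to 90 nt share (5.67% of all genes), 1 of 59 in the <30-nt share (2.11%), 2 of 68 in abundance (4.19%) and 4 of 65 in the median tail (5.14%).

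**Figure D4:**
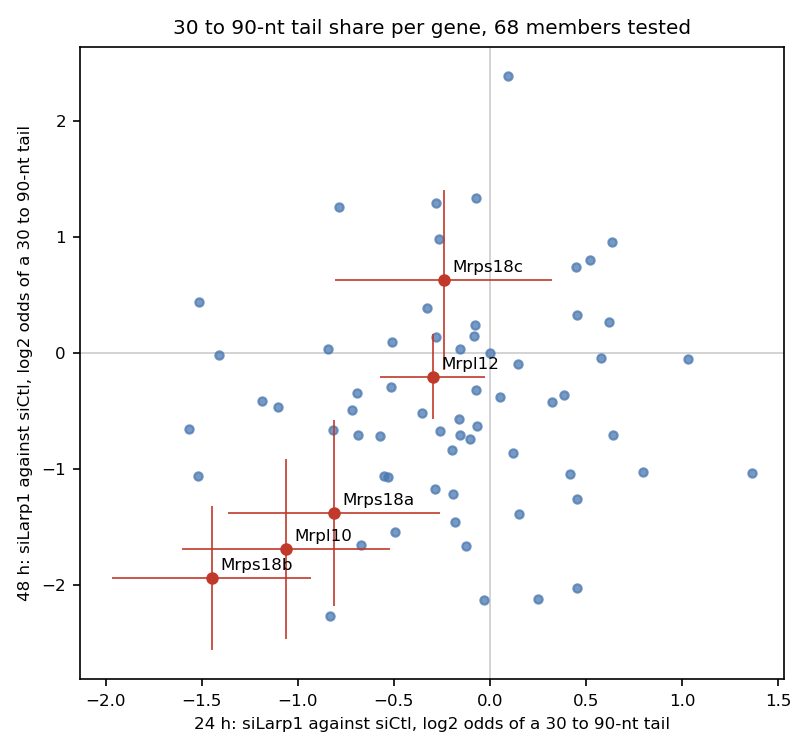
Fitted log2 odds of a 30 to 90 nt tail, siLarp1 against siCtl, at 24 h (horizontal) and 48 h (vertical) for the 68 members tested. Red points with bars (± SE) are the bS18 family, Mrpl10 and Mrpl12. Of the 68 points, 33 lie below 0 at both times, and Mrps18b and Mrpl10 are in the lower left corner.

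Both ribosomal subunits showed the lower 30 to 90 nt share. The large subunit (51 genes, 14609 reads) went from a mean of 43.3% ± 1.4 to 40.1% ± 1.4 at 24 h (SD, n = 3) and from 46.7% ± 0.81 to 38.4% ± 3.8 at 48 h (SD, n = 2). The small subunit (26 genes, 5744 reads) went from 39.9% ± 3.1 to 35.1% ± 1.4 and from 43.7% ± 1.2 to 36.1% ± 2.7. None of these pairs overlapped, but the gaps at 24 h were narrow. There the lowest siCtl and highest siLarp1 libraries had 41.82% and 41.68% in the large subunit and 36.36% and 36.12% in the small subunit. Subunits were assigned from the known structure, which places Mrps18a and Mrps30 in the large subunit despite their names. In the small subunit the <30-nt share was 2.65 and 4.27% in siCtl against 7.23 and 5.15% in siLarp1 at 48 h, without overlap, whereas it overlapped at 24 h, and in the large subunit it overlapped at both times.

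Members with a bacterial counterpart and members found only in mitochondria were compared as well. The 45 with a bacterial counterpart had 42.0% ± 1.6 of reads with tails of 30 to 90 nt in siCtl and 38.3% ± 1.6 in siLarp1 at 24 h (SD, n = 3), and 44.9% ± 0.13 and 37.4% ± 5.5 at 48 h (SD, n = 2), without overlap. The 30 found only in mitochondria had 42.8% ± 2.2 and 40.4% ± 0.74 at 24 h, which overlapped, and 46.2% ± 1.3 and 39.5% ± 0.67 at 48 h, which did not. Mrps18a and Mrps18b, the more divergent S18 relatives, were counted in neither class. Mrps36 belongs to neither class or subunit: its protein is now known as a component of the alpha-ketoglutarate dehydrogenase complex. Leaving it out gave differences of -3.65 and -8.07 points for all members.

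Mrps18b was 1 of 2 members below an unadjusted p of 0.05 in the 30 to 90 nt share at both times. It lies at chr17:35910379-35916389 on the minus strand (7 exons, a 1079-nt transcript) and encodes 1 of 3 mammalian relatives of bacterial ribosomal protein S18. The class held 34.9%, 47.8% and 38.1% of its reads in siCtl and 22.7%, 16.7% and 19.4% in siLarp1 at 24 h, and 61.5% and 54.8% against 31.6% and 13.3% at 48 h. All siLarp1 libraries lay below all siCtl libraries, on 15 to 63 reads each. The fitted log2 odds difference was -1.45 (SE 0.52) at 24 h and -1.94 (SE 0.62) at 48 h, with unadjusted p of 0.0033 and 0.0013 and adjusted p of 0.355 and 0.422. At 48 h it was -3.16 without siLarp1 library 24. Its abundance changed little, from 144 ± 8.7 to 172 ± 33 RPM at 24 h (SD, n = 3) and from 202 ± 40 to 179 ± 78 RPM at 48 h (SD, n = 2), both overlapping.

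Mrpl10 was the other member below the unadjusted threshold in this class at both times, a count of 2 of 68 members beside 0.556% of all genes. Its protein anchors the L12 stalk that recruits translation factors to the large subunit, and its gene lies at chr11:97041560-97049213 on the plus strand (5 exons). The shares were 41.7%, 40.4% and 48.0% in siCtl and 5.56%, 28.6% and 45.0% in siLarp1 at 24 h, which overlapped, and 66.7% and 63.2% against 47.4% and 23.5% at 48 h, which did not. The 24 h difference of -1.06 (SE 0.54, log2 odds, adjusted p = 0.733) was -0.31 without siLarp1 library 19 and -2.05 without siLarp1 library 22. At 48 h it was -1.69 (SE 0.77, adjusted p = 0.705), on 12 to 19 reads per library, and -1.01 without siLarp1 library 25.

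Mrps18c, the S18 relative closest to the bacterial protein, was the single member lower in abundance at an unadjusted p under 0.05 at both times (0.593% of all genes moved in the same direction at both times by this rule). It lies at chr5:100798627-100804471 on the plus strand (6 exons, 638 nt). Its level was 142, 148 and 175 RPM in siCtl and 50.1, 105 and 102 RPM in siLarp1 at 24 h, and 222 and 118 RPM against 92.5 and 66.4 RPM at 48 h. The groups did not overlap at either time, on 6 to 74 reads per library. The limma voom fit gave log2 fold changes of -0.84 (SE 0.29, adjusted p = 0.779) and -0.87 (SE 0.39, adjusted p = 0.874). At 24 h the estimate was -0.56 without siLarp1 library 19, and at 48 h -0.51 without siCtl library 24 and -1.42 without siCtl library 25. Its 30 to 90 nt share was 43.9%, 43.1% and 48.6% in siCtl and 50%, 35.7% and 43.8% in siLarp1 at 24 h, and 36% and 47.6% against 40% and 75% at 48 h. These groups overlapped, with a log2 odds difference of -0.24 (SE 0.56) at 24 h and 0.63 (SE 0.78) at 48 h. The 48 h value had the opposite sign to that of Mrps18b, and was 2.09 without siLarp1 library 24 and -0.08 without siLarp1 library 25.

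Mrps18a, the third S18 relative (chr17:46110986-46128910, plus strand, 6 exons), sits in the large subunit. Its 30 to 90 nt share was 64.7%, 25% and 46.8% in siCtl and 50.0%, 7.69% and 38.9% in siLarp1 at 24 h, and 75% and 45.5% against 46.7% and 18.2% at 48 h. The siCtl range covered most of the siLarp1 range at 24 h.

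**Figure D5:**
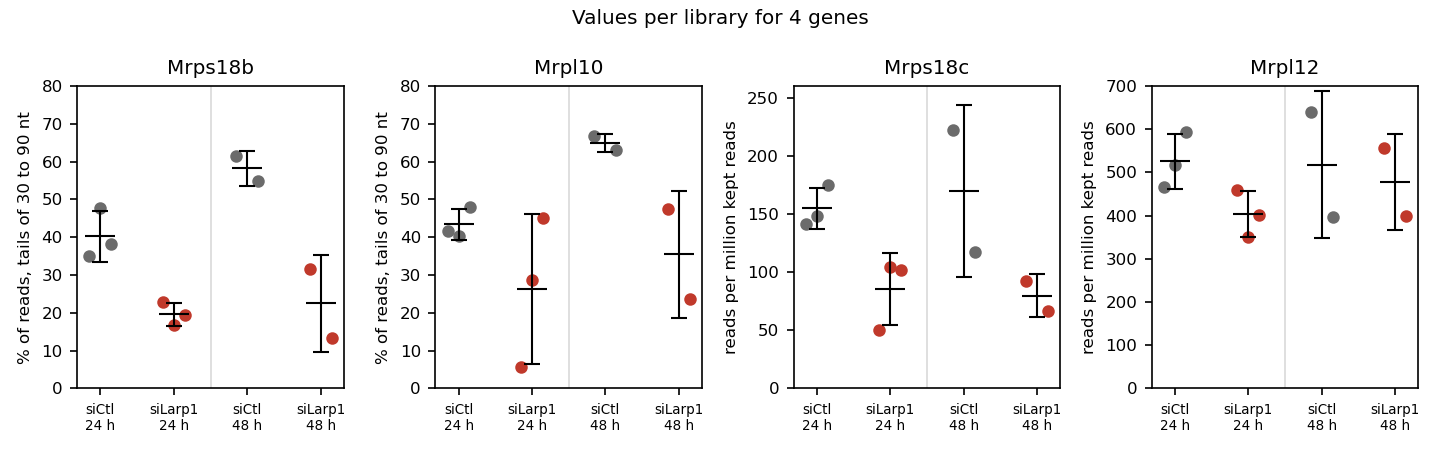
Values per library of 4 genes: percent of reads with tails of 30 to 90 nt for Mrps18b and Mrpl10, and RPM for Mrps18c and Mrpl12. Points are libraries (grey siCtl, red siLarp1), black bars are means ± SD (n = 3 at 24 h, n = 2 at 48 h). Mrps18b and Mrps18c do not overlap at either time, Mrpl10 overlaps at 24 h, and Mrpl12 overlaps at 48 h.

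The member with the most reads, Mrpl12 (1010 reads, chr11:120484613-120489065, plus strand, 5 exons), encodes the stalk protein itself, which also binds the mitochondrial RNA polymerase. It was measured at 466, 517 and 593 RPM in siCtl and 459, 351 and 401 RPM in siLarp1 at 24 h, and at 639 and 397 against 555 and 398 RPM at 48 h. The groups were apart at 24 h and overlapped at 48 h. The log2 fold change was -0.39 (SE 0.16, limma voom, adjusted p = 0.786) at 24 h and -0.01 at 48 h. The 48 h value depended on single libraries, at 0.27 without siCtl library 24 and -0.41 without siCtl library 25, and at -0.27 without siLarp1 library 24. Its 30 to 90 nt share was 43.4 to 44.4% in siCtl and 36.2 to 40% in siLarp1 at 24 h and overlapped at 48 h.

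The next members by reads were Mrpl42 (611), Mrpl51 (578), Mrpl20 (576), Mrpl52 (540), Mrpl18 (503), Mrpl11 (475), Mrpl34 (458), Mrpl15 (456), Mrpl28 (455), Mrps36 (441) and Mrpl13 (432). Mrpl42, specific to mitochondria, had a log2 odds difference of -0.53 (SE 0.33) at 24 h and -1.07 (SE 0.49, unadjusted p = 0.0273) at 48 h in the 30 to 90 nt share. Its 2 siLarp1 libraries at 48 h had 43.2% and 32.0%, both below the 59.0% and 56.4% of siCtl. Mrpl51, also specific to mitochondria, gave -0.57 (SE 0.34) and -0.71 (SE 0.52). Mrpl52 and Mrpl13 had positive values at both times, 0.62 (SE 0.33) and 0.27 (SE 0.52) for Mrpl52 and 0.45 (SE 0.39) and 0.75 (SE 0.58) for Mrpl13. At 24 h the Mrpl52 value was 0.11 without siLarp1 library 19 and 1.29 without siLarp1 library 22, and the Mrpl51 value was -0.21 without siLarp1 library 22. None of these passed the adjusted threshold.

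Among the same genes, Mrpl18 and Mrpl15 had lower abundance at 24 h at an unadjusted p under 0.05. Mrpl18, a relative of the bacterial protein that holds 5S rRNA, was at 262, 267 and 269 RPM in siCtl and 209, 150 and 216 RPM in siLarp1, without overlap (log2 fold change -0.47, SE 0.20). Mrpl15 was at 259, 276 and 215 RPM against 142, 217 and 185 RPM, with overlap (-0.43, SE 0.21). At 48 h their log2 fold changes were -0.22 (SE 0.26) and 0.33 (SE 0.29). The other 7 members below that threshold at 24 h besides Mrpl12, Mrpl18 and Mrpl15 were Mrps18c, Mrpl22, Mrpl27, Mrpl49, Mrpl38, Mrpl2 and Mrps30, named here after their values were seen, with fold changes from -0.52 to -0.84 on the log2 scale. Without siLarp1 library 21, 2 members were lower by that threshold.

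Genes that serve the mitochondrial ribosome but carry other names were read from lists of known components. Of 7 ribosome proteins named otherwise, 6 were found, with 1696 reads, and their 30 to 90 nt share was 40.6 to 42.8% in siCtl against 30.3 to 39.6% in siLarp1 at 24 h and 41.2 to 50.9% against 30 to 31% at 48 h. The groups were apart at both times, and 0 of 5 tested passed the adjusted threshold (0 at 24 h and 2 at 48 h by unadjusted p). Their <30-nt share was 2.74 to 4.91% in siCtl and 5.66 to 6.21% in siLarp1 at 24 h, and 4.46 to 5.34% against 5.75 to 6.67% at 48 h, also apart. The 25 assembly factors of the mitochondrial ribosome (2128 reads) went from 40.8% ± 0.59 to 36.1% ± 3.5 in the 30 to 90 nt class at 24 h (SD, n = 3), apart, and overlapped at 48 h. The 13 mitochondrial translation factors (798 reads) overlapped at 24 h and were apart at 48 h (40% ± 2.5 and 28.6% ± 3.1, SD, n = 2). The 20 mitochondrial aminoacyl-tRNA enzymes (730 reads) overlapped at both times.

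In control cells the members differed widely among themselves. Over the 51 members with at least 100 reads in the siCtl libraries of 24 h, the 30 to 90 nt share ran from 31.7% in Mrpl4 to 58.8% in Mrpl35, with a median of 42.7% and quartiles of 40.2% and 45.2%. The median tail ran from 70.9 nt in Mrpl35 to 112 nt in Mrps21, with a median member at 94.6 nt. The <30-nt share ran from 0.0% in Mrpl21 to 8.0% in Mrpl38, with a median of 3.58%. Spearman's rho between the median tail and the annotated transcript length over these 51 genes was -0.05, given as a description across genes that share libraries. The reads per member over all libraries ran from 75 (Mrpl36) to 1010 (Mrpl12), with a median of 245.

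Member reads were also split by the annotated length of the transcript they aligned to, so that a member with several transcripts can enter several classes, and differences between the classes were not tested. Transcripts up to 700 nt had means of 43.8% in siCtl and 43.2% in siLarp1 at 24 h, with overlap, and 47.4% and 41.0% at 48 h, apart. Those of 700 to 1000 nt went from 41.8% to 37.4% and from 45.3% to 33.8%, apart at both times. The class of 1000 to 1500 nt overlapped at 24 h (42.4% and 39.7%) and was apart at 48 h (44.5% and 39.6%), and transcripts over 1500 nt were apart at both times (42.1% and 36.6%, then 46.3% and 37.2%). For other mRNAs in these 4 classes, from the shortest to the longest, the siCtl means at 24 h were 37.1%, 38.4%, 37.7% and 34.4% and the siLarp1 means 38.1%, 38.1%, 36.9% and 33.0%. At 48 h they were 42.3%, 43.2%, 41.2% and 36.6% in siCtl and 38.7%, 39.8%, 37.9% and 34.1% in siLarp1.

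Reads of the members were alike between libraries in their aligned length, with medians of 694 to 750 nt. Of member reads on transcripts of annotated length, 53.4% ended within 50 nt of the annotated 3′ end. Protein-coding transcripts took 96.7% of member alignments, and 0.418% came from reads that also aligned to another gene. The 826 member reads with tails under 30 nt had a barcode confidence of at least 0.9 in 75.7% of cases, against 88.4% of the 19968 others, so the short class holds more reads of uncertain library. Its share with confident barcodes alone differed between siLarp1 and siCtl by 0.610 points at 24 h and 0.937 points at 48 h, with overlap.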

How the data were processed

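The authors called bases with Guppy, assigned barcodes with Deeplexicon, aligned reads with Minimap2 (version 2.20) to mm10 with GENCODE vM17 genes, and estimated each read's poly(A) tail in nt with Nanopolish. The deposited table holds 1 line per read and aligned sequence, giving barcode confidence (a fraction) and mapping quality (a score), and the authors had filtered it on neither. Samples were grouped by the labels; library names show the treatment and, with a condition column, the time, but not which labelled replicate a library is, so library numbers serve as names.

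Alignments to mRNA with the tag PASS, not on pseudogenes or mitochondrial transcripts, were kept and tallied per gene and library. Abundance was tested with limma 3.58.1 voom in R 4.3.3, scaled to kept reads. Tail shares were tested with a quasi-binomial logistic model (dispersion moderated with limma and not below 1) and median tails with limma weighted by reads. Each fit took all 10 libraries as 4 groups and Benjamini-Hochberg adjustment over all genes tested, with 0.05 as the threshold. Abundance and tail shares were fitted in genes with at least 30 reads per time point, median tails in genes with at least 5 reads in each library. A tail-share test also needed reads both inside and outside the class. The models were tested on simulated data. Pooled values of gene lists are means ± SD over libraries, with no p-value. Transcript coordinates and start sequences were taken from GENCODE vM21 (GRCm38). Members described by name were the 12 with the most reads, any called by a test, any with unadjusted p under 0.05 in the same direction at both times, the S18 relatives and the extremes of a range. Members, lists and rules were chosen with earlier results of these data known. Alternatives covered read filters, tail boundaries, scaling, fits and left-out libraries. Precision is limited by counting: member reads per library ran from 1042 to 4670.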

Additional observations from a re-analysis of the deposited data

How the results depend on the processing

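Of 100 recalculations of the pooled member values, 98 stayed within 1 SD of the reported value and none changed the sign of a difference larger than that. The exceptions were the <30-nt share at 24 h with barcode confidence of at least 0.9 (a difference of 0.610 percentage points, groups overlapping) and the <30-nt share at 48 h with each of the members of at least 10 reads in each library counted once (1.98 points, no overlap). The cause was not tested. The 40 recalculations that left out 1 library could not move by 1 SD. Leaving out 1 library of so small a group shifts its mean by less than the SD used, so their count says nothing about stability. The 30 to 90 nt share was lower in siLarp1 in each of 12 recalculations per time point, and the groups stayed apart in 11 of 12 at each. Those that left out 1 library could not change the sign or bring overlap, as the full groups were apart, so only the others bear on this. Overlap came with mapping quality of at least 10 at 24 h and with the second run alone at 48 h. Leaving out 1 library at a time gave -4.57 to -3.12 points at 24 h and -10.8 to -5.66 at 48 h for that share, -0.122 to 0.391 and 0.0478 to 1.65 points for the <30-nt share, 3.99 to 5.68 and 5.22 to 14.1 nt for the median, and -1390.0 to -635 and -2005 to -165 RPM for abundance. At 48 h abundance was apart with scaling to reads not on TOP genes (-1364 RPM) and with median-of-ratios scaling (-1387 RPM). In 209 comparisons from fits across all genes under the alternatives no member was called. These fits called few genes of any kind, so a count of 0 says little about the members. At 24 h the calls among all genes ran from 0 to 37 in the <30-nt share and from 3 to 12 in the 30 to 90 nt share. In abundance at 24 h they ran from 0 to 12. Leaving out Mrps36 or Mrpl12 and using each 48 h run alone were chosen after seeing the data.

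With the library number as a replicate block, 0 members were called, as without it, while calls among all genes in abundance rose to 12 from 0 at 24 h, and to 11 from 1 at 48 h. Deviations of same-numbered libraries correlated at 0.064, 0.269 and 0.278 in abundance at 24 h, each library best with its own number. At 48 h every correlation in abundance was 0.117 or -0.117, positive for same-numbered libraries, so only a sign is known there. In the 30 to 90 nt share at 24 h same-numbered libraries correlated at -0.003 to 0.085. The main tests took no pairs, as the labels do not say what libraries of the same number share. For abundance these correlations do not exclude pairs, which the main abundance tests leave out. Depth limits single genes: a member had a median of 245 reads over all libraries.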
